A study of Mus musculus with 26 samples.

Results

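Of the 7 double-mutant libraries of haematopoietic stem cells (HSCs) in the series, 3 held transcripts of Retnlg, a resistin-like secreted protein of mature neutrophils, and 4 held none, and these 2 sets are described here out of 26 libraries in all. The sets were chosen by the measured level of Retnlg itself: replicates 3, 4 and 7 had Retnlg above 0 RPKM (a read count divided by gene length and library size), and replicates 1, 2, 5 and 6 were listed at 0 RPKM. Differences between the sets are therefore given as a description, with no test. The study compared HSCs purified by flow cytometry from mouse bone marrow and sequenced after Smart-Seq2 amplification, a full-length method for very small RNA inputs. Its groups are JAK2V617F with loss of Ezh2 (double mutant, n = 7), Ezh2 loss alone (n = 7), JAK2V617F alone (n = 7) and control (n = 5). Both sets described here carry both changes, and the genotype label spells the mutation JAK2V17F, read here as JAK2V617F. JAK2V617F is an activating mutation of a kinase that signals below several blood cytokine receptors, and Ezh2 is the catalytic subunit of Polycomb repressive complex 2 (PRC2), which methylates lysine 27 of histone H3. The age, sex and strain of the mice, the Cre or promoter behind either allele, the sort gates and the number of cells per library are missing from the labels. Nothing in the labels says that libraries of a group come from separate mice.

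Neutrophils form in the bone marrow in steps that leave a record in their granules. Promyelocytes make the azurophil granule proteases and myeloperoxidase, myelocytes the specific granule proteins such as lactoferrin, cathelicidin and neutrophilic granule protein, and later forms the gelatinase granule, the S100a8 and S100a9 proteins and Retnlg. HSCs sit at the other end of this path: they divide rarely and depend on factors such as Gata2, Meis1 and Myb and on receptors such as Kit, and they make little or none of these granule proteins.

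Retnlg was listed at 81.6, 526 and 6.77 RPKM in replicates 3, 4 and 7, against 0 RPKM in each of replicates 1, 2, 5 and 6, where 3 reads would have given 0.173 to 0.293 RPKM. It was above 0 in 3 of 7 double-mutant, 7 of 7 Ezh2 loss, 1 of 7 JAK2V617F and 0 of 5 control libraries. Camp, the antimicrobial cathelicidin, had 3254, 5013 and 13.4 RPKM in the libraries with Retnlg (replicates 3, 4 and 7, in that order here and below), against 8.13, 0, 0.0725 and 8.69 RPKM in those without (replicates 1, 2, 5 and 6). Ngp, the neutrophilic granule protein, had 3215, 5968 and 6.54 RPKM in the libraries with Retnlg, against 14.6, 0, 3.44 and 0 RPKM in those without. S100a8, a subunit of the calcium-binding calprotectin, had 12657, 26771 and 113 RPKM in the libraries with Retnlg, against 400.1, 13.1, 16.6 and 21.7 RPKM in those without. Replicates 3 and 4 were far above the rest in all of these genes, but replicate 7 was below replicate 1 in Ngp and S100a8 and not far above replicate 6 in Camp. In bulk samples such as these, fewer cells of a type and less RNA per cell cannot be told apart.

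The promoters of these 4 genes are shown because they are the gene that set the split and the 3 neutrophil markers it is read against. They are RefSeq sequences on GRCm38.p6, from 250 bases before to 50 after the single listed start of each gene, and capitals mark matches on either strand to the C/EBP motif TTNNGNAA or the PU.1 motif GAGGAAGT. The windows are chr16:48872358-48872657 on the plus strand for Retnlg, chr3:90668821-90669120 on the plus strand for S100a8, chr9:110419558-110419857 on the plus strand for Ngp and chr9:109849407-109849706 on the minus strand for Camp.
Retnlg: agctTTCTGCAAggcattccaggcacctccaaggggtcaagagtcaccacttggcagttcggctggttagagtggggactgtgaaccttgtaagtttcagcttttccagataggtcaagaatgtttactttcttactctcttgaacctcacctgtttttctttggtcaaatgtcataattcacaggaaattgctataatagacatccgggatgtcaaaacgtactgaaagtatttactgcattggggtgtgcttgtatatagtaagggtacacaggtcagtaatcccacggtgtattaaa
S100a8: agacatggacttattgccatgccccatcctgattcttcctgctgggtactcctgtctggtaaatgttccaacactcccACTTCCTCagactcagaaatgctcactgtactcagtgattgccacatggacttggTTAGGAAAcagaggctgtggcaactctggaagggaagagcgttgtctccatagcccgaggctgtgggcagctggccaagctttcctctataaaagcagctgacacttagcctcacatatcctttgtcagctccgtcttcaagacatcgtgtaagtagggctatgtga
Ngp: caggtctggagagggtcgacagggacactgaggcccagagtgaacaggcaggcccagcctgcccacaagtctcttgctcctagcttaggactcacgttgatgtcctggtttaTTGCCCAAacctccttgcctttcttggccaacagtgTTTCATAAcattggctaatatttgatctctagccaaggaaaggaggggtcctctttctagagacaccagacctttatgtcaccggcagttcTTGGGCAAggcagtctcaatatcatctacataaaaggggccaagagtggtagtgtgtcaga
Camp: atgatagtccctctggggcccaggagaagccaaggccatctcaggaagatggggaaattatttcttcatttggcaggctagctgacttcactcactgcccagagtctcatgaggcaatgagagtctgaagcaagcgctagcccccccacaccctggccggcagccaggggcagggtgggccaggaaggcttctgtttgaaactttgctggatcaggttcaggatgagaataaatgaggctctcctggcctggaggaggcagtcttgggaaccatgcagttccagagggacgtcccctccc
Ngp had 3 C/EBP matches, Retnlg 1, S100a8 1 with 1 further match to PU.1, and Camp had no match to either. Of 27025 promoters of this length, 40.7% held a C/EBP match and 3.28% a PU.1 match. A match describes letters and not a bound site.

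The label of neutrophil transcripts described replicates 3 and 4, and replicate 7 only in part. Lcn2, the siderophore-binding lipocalin of specific granules, had 708 and 763 RPKM in replicates 3 and 4 and was listed at 0 in replicate 7, against 0.408, 0, 0 and 0 RPKM in the libraries without Retnlg. Ltf, lactoferrin, had 157 and 376 RPKM in replicates 3 and 4 and 0 in replicate 7, against 3.87, 4.02, 0 and 0 RPKM without Retnlg. Mmp9, the gelatinase that names its granule, was at 33.1 and 26.5 RPKM in replicates 3 and 4 and at 0 in the other 5 libraries. The formyl peptide receptors Fpr1 and Fpr2 and the lipolysis inhibitor G0s2 followed the same pattern, at 5.40 to 18.9 RPKM in replicates 3 and 4 and at 0 in the other 5.

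Replicate 7 instead stood apart in several genes of the promyelocyte and the monocyte. Elane, neutrophil elastase, had 0.106, 0 and 418 RPKM in the libraries with Retnlg, against 0, 3.75, 3.82 and 0.0372 RPKM in those without. Mpo, myeloperoxidase, had 4.31, 0 and 230.0 RPKM with Retnlg, against 0, 0.797, 0 and 3.58 RPKM without. Ctsg, cathepsin G, was at 24.2 RPKM in replicate 7 and at 0 in the other 6. These 3 azurophil genes were thus high in 1 library of 7. Among monocyte genes, Ccr2, the chemokine receptor of inflammatory monocytes, was at 37.3 RPKM in replicate 7 and at 0 in replicates 3 and 4, against 0, 0, 4.36 and 0 RPKM without Retnlg. F13a1, coagulation factor XIII A, was at 75.6 RPKM in replicate 7, against 0.865 RPKM or less in the other 6 libraries. Irf8, which directs monocyte and dendritic fate, had 13.6, 4.95 and 81.5 RPKM with Retnlg, against 7.32, 0.0539, 5.55 and 0.0242 RPKM without. The summed RPKM of the 15 monocyte and macrophage genes was 232, 241 and 1670.5 with Retnlg, against 59.3, 104, 31.8 and 40.3 without. Ly6c2 alone carried much of this: with it left out the sums were 165, 50.9 and 598 with Retnlg, against 59.2, 97.9, 31.8 and 40.3 without, so that replicate 4 lay within the other set. Replicate 7 was also the single library with Cd79a, the B cell receptor signalling chain, at 50.4 RPKM against 0 in the other 6.

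**Figure D1:**
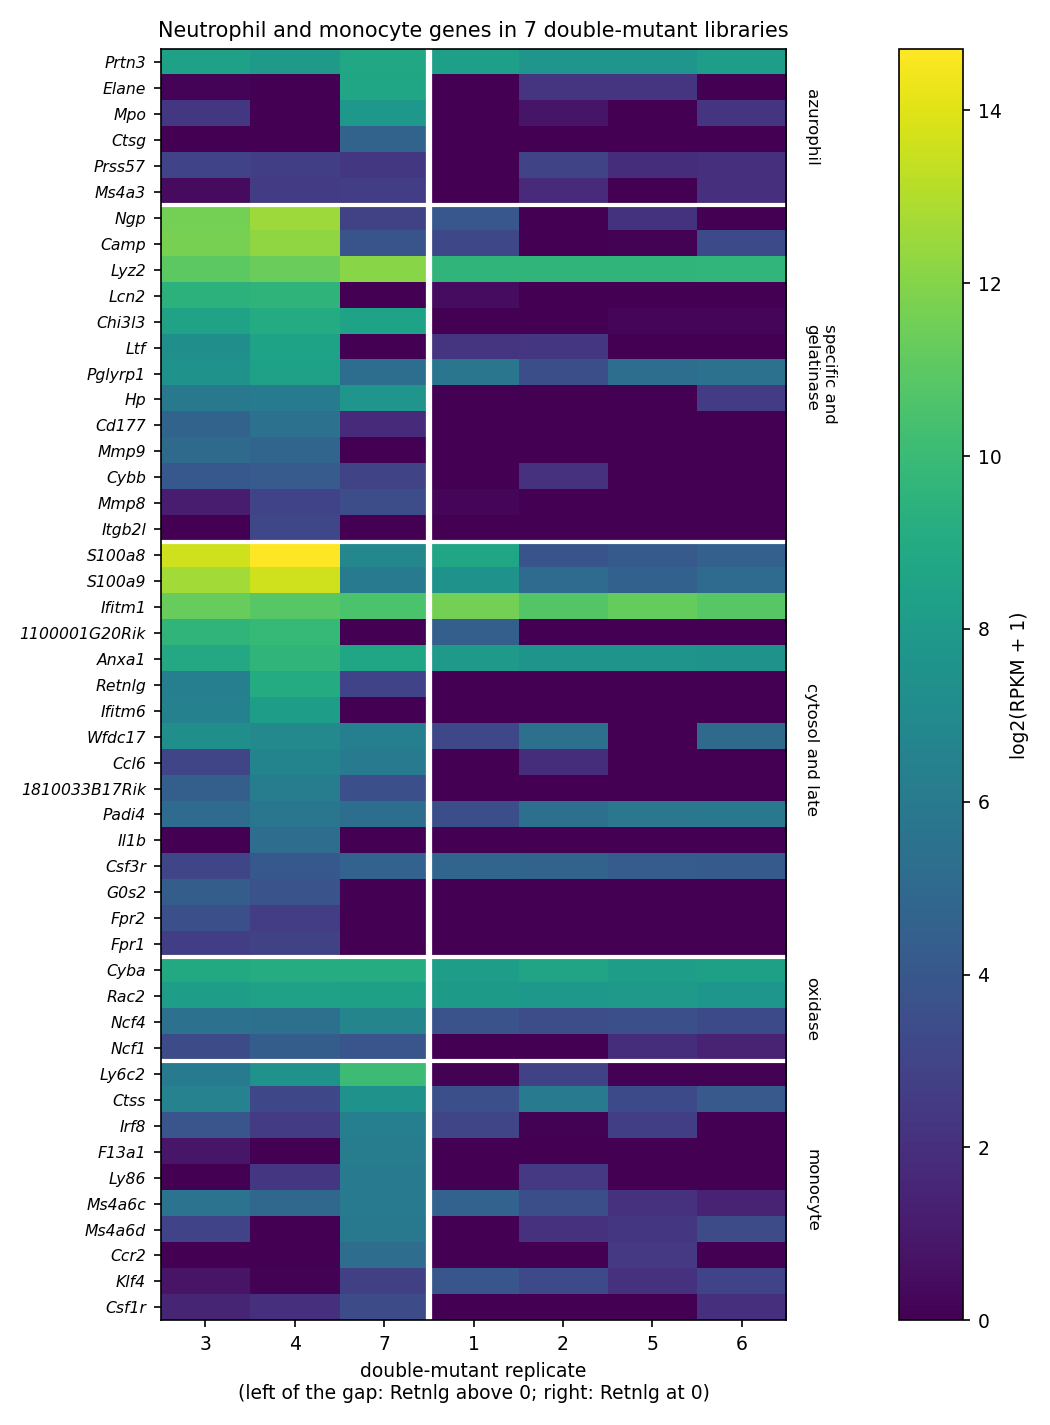
Levels of neutrophil and monocyte list genes that reach 5 RPKM in any of the 7 double-mutant libraries, as log2(RPKM + 1) by colour. The 3 columns left of the white gap are the libraries with Retnlg and the 4 on the right those without: Lcn2, Ltf and Mmp9 are bright only in replicates 3 and 4, whereas Elane, Mpo and Ctsg are bright only in replicate 7.

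Some genes were high in all 3 libraries with Retnlg at levels that did not follow Retnlg. Chi3l3, a chitinase-like protein of myeloid cells, had 355, 539 and 363 RPKM with Retnlg, against 0.0377, 0, 0.141 and 0.133 RPKM without. Ly6c2, a surface antigen of monocytes and immature granulocytes, had 67.0, 189.9 and 1072 RPKM with Retnlg, against 0.0724, 6.27, 0.0542 and 0.0427 RPKM without. Hp, haptoglobin, had 59.7, 67.6 and 204 RPKM with Retnlg, against 0, 0, 0 and 4.94 RPKM without. Retnlg was highest in replicate 4 and lowest in replicate 7 of these 3, whereas Hp and Ly6c2 were highest in replicate 7 and Chi3l3 was at like levels in replicates 3 and 7. Cd52, a glycoprotein of leukocyte surfaces, had 245, 329.6 and 311 RPKM with Retnlg, against 0, 0, 44.3 and 2.18 RPKM without, where replicate 5 was the exception. Lyz2, lysozyme, which all 7 libraries held, had 2091, 2619 and 4306 RPKM with Retnlg, against 787, 797, 802 and 814 RPKM without, a mean difference of 1.84 in log2(RPKM + 1). Chi3l3 and Ly6c2 have near-identical relatives, so reads may be split between copies.

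Across all genes, 11173 of 23416 reached 1 RPKM in at least 3 of the 7 libraries and were described. A gene was called higher where each library with Retnlg lay above each library without, and lower in the converse case. On this rule 527 genes were higher (4.72%) and 757 lower (6.78%), and with a mean difference of at least 1 in log2(RPKM + 1) the counts were 200 higher (1.79%) and 474 lower (4.24%). The median difference of all 11173 genes was -0.13. Scaling moved the balance, since the counts were 704 higher and 630 lower with median-ratio scaling, 285 and 1096 with TPM (RPKM rescaled to the same total in every library), and 390 and 929 with TPM computed without the neutrophil lists. The median of all genes under these was -0.04, -0.30 and -0.23. Of the 11173 genes, 35 passed the filter through the 3 libraries with Retnlg alone and had to be called higher. Likewise, genes at 1 RPKM or more in each library without Retnlg and below 1 RPKM in each with it had to be called lower. These were not counted apart and are part of the lower counts. Because the split used these same libraries, shares of gene lists are set beside 4.72% and 6.78% as a description only.

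**Figure D2:**
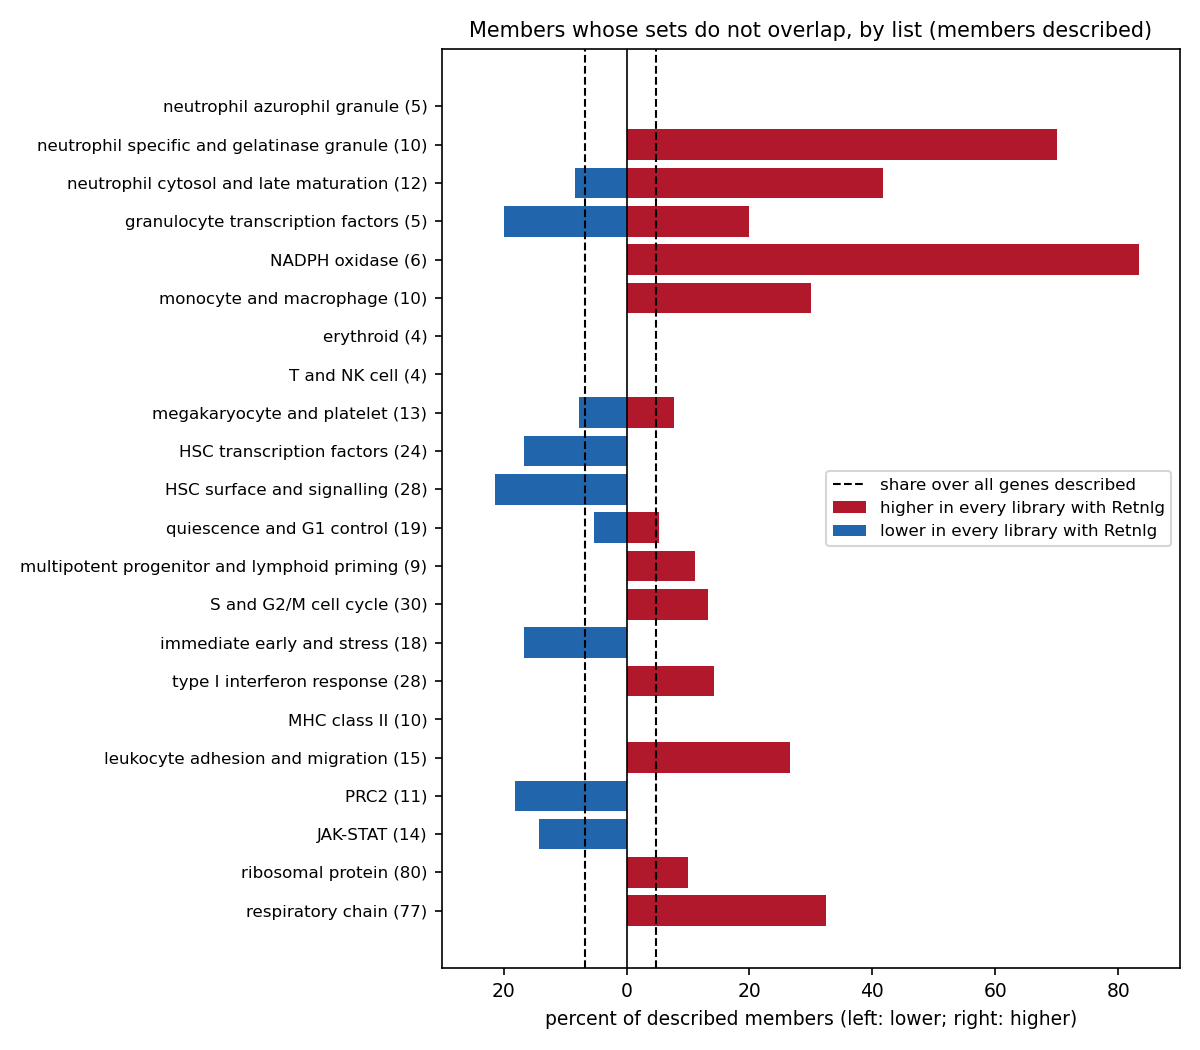
Percent of the described members of each gene list that were higher (right) or lower (left) in every library with Retnlg than in every library without, with the number of members described in brackets and the shares over all genes, 4.72% and 6.78%, as dashed lines. NADPH oxidase (5 of 6 higher) and specific granule genes (7 of 10 higher) lie farthest right, and both stem cell lists hold lower members and 0 higher ones. Of the 10 specific granule genes, 3 passed the filter through the libraries with Retnlg alone, and without them 4 of 7 were higher.

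By granule class, 7 of the 10 described specific and gelatinase granule genes were higher (70.0%, against 4.72%) and 0 lower (median 4.07). The higher genes were Camp, Cd177, Chi3l3, Cybb, Hp, Lyz2 and Mmp8. Of the 10, 3 had passed the filter through the libraries with Retnlg alone and so had to be higher. Without them 4 of 7 were higher and 0 lower (median 4.13). Of the 12 described cytosolic and late genes, 5 were higher (41.7%, against 4.72%) and 1 was lower (8.33%, against 6.78%), with a median of 4.09. The lower one was Clec4d, a C-type lectin. The 5 include Retnlg, which set the split, and 1810033B17Rik, which like Retnlg passed the filter through the libraries with Retnlg alone. Without both, 3 of 10 were higher and 1 lower (median 2.43), the 3 being Anxa1, Ccl6 and Wfdc17. Of 5 described azurophil genes, 0 were higher and 0 lower (against 4.72% and 6.78% of all genes), with a median of 0.97. Prtn3, proteinase 3, ran through all 7 libraries at 340.0, 246 and 450.2 RPKM with Retnlg, against 313, 199, 203 and 295 RPKM without, and its sets overlapped. The median over the 3 lists was 3.24, against 1.41 over members at 1 RPKM or more in all 7 libraries, 1.91 with a pseudocount of 5 and 4.83 with a pseudocount of 0.1. The 3 neutrophil lists together took 5.22%, 9.55% and 1.42% of summed RPKM with Retnlg, against 0.895%, 0.579%, 0.702% and 0.609% without, and 0.553% to 1.10% in the 5 controls.

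Of 10 described monocyte genes 3 were higher, Ly6c2, Ms4a6c and Mpeg1, and 0 lower (30.0% higher, against 4.72%). Mpeg1, the pore-forming perforin-2 of macrophages, had 3.84, 1.67 and 1.65 RPKM with Retnlg, against 0, 0.702, 0 and 0 RPKM without, and did not stand apart in replicate 7. Mpeg1 passed the filter through the libraries with Retnlg alone and so had to be higher. Without Mpeg1, 2 of 9 monocyte genes were higher and 0 lower.

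Members outside the filter or at 0 complete the lists. Ifitm6, an interferon-induced transmembrane protein, was at 86.4 and 296 RPKM in replicates 3 and 4 and at 0 in the other 5. Il1b, the inflammatory cytokine interleukin 1 beta, was at 37.1 RPKM in replicate 4 alone. Of the 24 cytosolic and late genes in the table, 5 were listed at 0 in all 7 libraries.

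The NADPH oxidase, which makes superoxide in phagocytes, was higher in 5 of its 6 genes (83.3%, against 4.72%), with a median of 1.49. The median was 0.55 over members at 1 RPKM or more in all 7 libraries, 0.67 with Cybb, a neutrophil list gene, left out, and 0.87 for replicates 3 and 4 against the other 5. Cybb, the catalytic subunit, which is also on the specific granule list, had 15.8, 17.4 and 7.14 RPKM with Retnlg, against 0, 3.27, 0 and 0 RPKM without. Ncf4, a cytosolic subunit, had 43.1, 41.2 and 103 RPKM with Retnlg, against 12.6, 10.3, 11.2 and 8.97 RPKM without, a mean difference of 2.31. Ncf1, the organising subunit, had 9.85, 19.02 and 13.7 RPKM with Retnlg, against 0, 0, 2.75 and 1.81 RPKM without. All 3 libraries took part, replicate 7 included.

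Granulocyte transcription factors split. Cebpe, C/EBP epsilon, which is needed for specific granule genes, had 5.29, 16.0 and 3.06 RPKM with Retnlg, against 0, 0, 0 and 2.46 RPKM without. Cebpb, C/EBP beta, which serves emergency granulopoiesis, went the other way at 0.710, 0.645 and 1.44 RPKM with Retnlg, against 109.5, 39.3, 37.9 and 2.07 RPKM without. Its mean difference of -3.83 was the most negative of the genes named, although replicate 6 at 2.07 RPKM was close to replicate 7 at 1.44 RPKM. Sfpi1, the gene of PU.1, had 92.9, 143 and 224 RPKM with Retnlg, against 120.1, 80.6, 83.2 and 140.2 RPKM without, and its sets overlapped.

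Of 15 described leukocyte adhesion and migration genes 4 were higher (26.7%, against 4.72%) and 0 lower: Tyrobp, Fcer1g, Fcgr3 and the tetraspanin Cd9. Tyrobp, the signalling adaptor DAP12, had 301, 329.5 and 695 RPKM with Retnlg, against 27.8, 24.8, 167 and 18.4 RPKM without. Fcer1g, the common Fc receptor gamma chain, had 466, 579.6 and 743 RPKM with Retnlg, against 222, 238, 276 and 163 RPKM without. Fcgr3, a low-affinity IgG receptor, had 19.9, 62.2 and 86.6 RPKM with Retnlg, against 5.48, 0.113, 0 and 0 RPKM without. All of these 3 were highest in replicate 7, where Retnlg was lowest of its set. Outside that list, Slpi, an inhibitor of neutrophil proteases, was at 53.8, 177 and 30.9 RPKM with Retnlg and listed at 0 in each library without. Fcnb, the ficolin of myeloid cells, had 9.01, 85.3 and 43.5 RPKM with Retnlg, against 0, 0, 7.03 and 0.0322 RPKM without.

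Most of the stem cell programme was present in both sets. Of 53 stem cell genes on the lists of transcription factors and of surface and signalling genes combined, 52 were described, 0 were higher and 10 were lower (19.2%, against 6.78% of all genes), with a median of -0.36 against -0.13 for all genes. Of the 52, the mean with Retnlg was below in 40 and above in 12. The count of lower stem cell genes depended on scaling. It was 7 with median-ratio scaling (median -0.27), 13 with TPM (median -0.54) and 12 with TPM computed without the neutrophil lists (median -0.47). The summed RPKM of 24 HSC transcription factors was 1982, 1902 and 1881 with Retnlg, against 2679.5, 2539, 2495 and 2103 without. That of 29 surface and signalling genes was 3630.0, 3174 and 3025 with Retnlg, against 4082, 4214, 3513 and 3520.2 without.

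The transcription factors called lower were Myb, Gata2, Meis1 and Gfi1b. Gata2, which maintains HSC survival, had 69.6, 108 and 78.1 RPKM with Retnlg, against 124, 179, 172 and 125 RPKM without, a mean difference of -0.81. Myb, which controls progenitor growth, had 58.1, 54.9 and 52.6 RPKM with Retnlg, against 143, 155, 99.9 and 66.0 RPKM without. Meis1, the Hox cofactor, had 104, 126 and 109.8 RPKM with Retnlg, against 129, 160.0, 133 and 196 RPKM without. Gfi1b, a repressor shared with the megakaryocyte and erythroid lines, had 165, 176 and 145 RPKM with Retnlg, against 211, 189, 182 and 235 RPKM without. The gaps between the sets were narrow: the highest Meis1 value with Retnlg was 126 RPKM and the lowest without was 129 RPKM.

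Among surface and signalling genes, those lower included Kit, Eng, Robo4, Trim47 and Bmi1. Kit, the stem cell factor receptor, had 82.4, 84.2 and 75.6 RPKM with Retnlg, against 89.8, 145, 165 and 103 RPKM without. Robo4, a guidance receptor of HSCs and endothelium, had 0.0132, 0 and 1.87 RPKM with Retnlg, against 3.91, 18.98, 21.5 and 12.5 RPKM without, the largest difference of the 52 genes at -3.20. Bmi1, a Polycomb repressive complex 1 subunit needed for self-renewal, had 16.4, 9.74 and 24.3 RPKM with Retnlg, against 37.6, 49.3, 31.4 and 30.9 RPKM without. In the 5 controls Kit ran from 64.0 to 93.0 RPKM, so 3 of the 4 libraries without Retnlg lay above every control, whereas the 3 with Retnlg lay within the control range. Other genes called lower differed in this. Controls ran from 65.0 to 102 RPKM for Myb and from 133 to 195 RPKM for Meis1, above every library with Retnlg. With Retnlg, Gata2 and Robo4 lay within the control range, and Gfi1b, Trim47 and Bmi1 lay partly below it.

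The other described stem cell genes overlapped between the sets. Procr, the endothelial protein C receptor used to purify HSCs, had 115, 147 and 102 RPKM with Retnlg, against 222, 130.4, 106 and 133 RPKM without. Pdzk1ip1, one of the most abundant HSC-enriched transcripts, had 728, 473 and 532 RPKM with Retnlg, against 749.9, 641, 499 and 579 RPKM without. Hlf, an HSC transcription factor, had 31.9, 30.7 and 37.0 RPKM with Retnlg, against 41.2, 64.4, 35.6 and 60.8 RPKM without. Slamf1, which codes for CD150, had 24.8, 32.4 and 52.8 RPKM with Retnlg, against 8.13, 22.8, 26.4 and 46.8 RPKM without. Replicate 4, with the highest share of neutrophil genes, lay inside the range of the libraries without Retnlg for Procr and Slamf1 and just below it for Pdzk1ip1 and Hlf. Ly6a, the Sca-1 antigen, had 937, 572 and 578 RPKM with Retnlg, against 638, 520.1, 351 and 469.9 RPKM without. Fgd5, used as a reporter gene of HSCs, had 7.63, 0 and 2.97 RPKM with Retnlg, against 4.43, 4.39, 6.02 and 6.19 RPKM without.

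**Figure D3:**
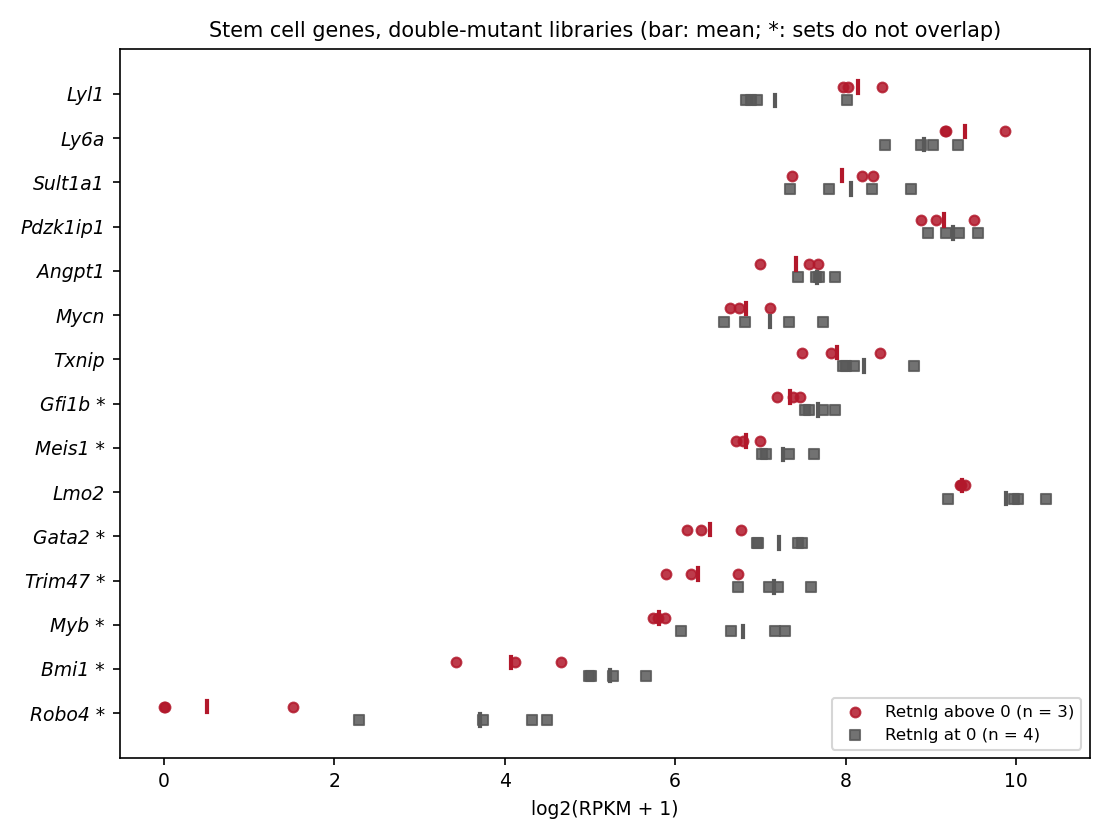
Levels of 15 named stem cell genes as log2(RPKM + 1) in each double-mutant library, with the libraries with Retnlg as red circles above those without as grey squares, and bars at the means. Genes with an asterisk do not overlap between the sets, and Robo4 has the widest gap (-3.20).

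Replicate 6, which lacked Retnlg, resembled the libraries with Retnlg in several of these genes. Lyl1, a partner of Lmo2, had 344, 249 and 260.2 RPKM with Retnlg, against 113, 123, 118 and 258 RPKM without, with replicate 6 inside the other set. Lmo2, the bridging factor of the HSC complex, had 676, 646 and 653 RPKM with Retnlg, against 1301, 1041, 1002 and 587 RPKM without. Tcf15, which marks quiescent HSCs, had 35.4, 17.4 and 29.6 RPKM with Retnlg, against 88.2, 74.2, 69.6 and 26.3 RPKM without. Other stem cell genes did not do so: in Meis1 and Gfi1b replicate 6 was the highest of the 7, at 196 and 235 RPKM. The numbers in the libraries' titles move with Lyl1, Lmo2 and Tcf15. They are 27, 25 and 26 for replicates 3, 4 and 7 and 24 for replicate 6. For replicates 1, 2 and 5 they are 2, 13 and 11. What the number stands for is not stated in the labels, and its part in the differences was not tested. Of the 4 libraries without Retnlg, replicate 6 lay nearest to the set with Retnlg in 198 of 527 higher genes (37.6%) and in 289 of 757 lower genes (38.2%). These counts hold only genes whose sets do not overlap, so Lyl1, Lmo2 and Tcf15 are not among them. They therefore do not measure how closely replicate 6 resembles that set, and the other libraries without Retnlg were not counted in this way.

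Of 19 described quiescence and G1 genes, which include inhibitors of the cell cycle and the G1 cyclins and kinases that drive it, 1 was higher and 1 lower (5.26% each, near the 4.72% and 6.78% of all genes), with a median of -0.48. Cdkn1b, the inhibitor p27, had 61.6, 82.1 and 59.2 RPKM with Retnlg, against 3.42, 12.0, 5.04 and 45.9 RPKM without, and replicate 6 was again near the set with Retnlg. Cdkn1c, the inhibitor p57 of quiescent HSCs, had 29.9, 33.4 and 26.8 RPKM with Retnlg, against 55.7, 161, 83.2 and 28.6 RPKM without, and its sets overlapped. Btg1, an antiproliferative cofactor, was the lower gene, at 19.7, 27.3 and 27.6 RPKM with Retnlg, against 82.7, 43.5, 45.4 and 36.8 RPKM without.

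The summed RPKM of the S and G2/M cell cycle genes was 915, 1572 and 1928.0 with Retnlg, against 649, 805, 872 and 962 without, with replicate 3 inside the other set. Of 30 described S and G2/M genes, 4 were higher (13.3%, against 4.72%), 0 were lower, and the median difference was 1.15. Ube2c, the mitotic ubiquitin-conjugating enzyme, had 10.6, 89.2 and 283 RPKM with Retnlg, against 2.37, 0, 0 and 0.699 RPKM without. Ccnb2, cyclin B2, had 7.28, 91.5 and 100.5 RPKM with Retnlg, against 0, 0.0329, 3.66 and 8.91 RPKM without, and overlapped through replicate 6. Aurka, the centrosomal Aurora kinase, was at 33.0 and 70.4 RPKM in replicates 4 and 7 and at 0 in the other 5. The median was 0.75 without replicate 4, 0.77 without replicate 7 and 1.83 without replicate 3, and it was 0.26 over members at 1 RPKM or more in all 7 libraries.

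Immediate early genes are those that cells switch on within minutes of stimulation. Of 18 immediate early and stress genes described, 3 were lower (16.7%, against 6.78%) and 0 higher, 17 had a lower mean, and the median was -1.19. The summed RPKM of the list was 1871, 2942 and 2562 with Retnlg, against 7582, 5821, 2749 and 6082 without, so that the sets overlapped through replicate 5. Egr1, a zinc-finger factor that restrains HSC division, had 29.4, 21.2 and 35.6 RPKM with Retnlg, against 438, 360.3, 62.6 and 272 RPKM without. Fos, the AP-1 subunit, had 136, 210.0 and 245 RPKM with Retnlg, against 1291, 759, 146 and 1396 RPKM without. Ppp1r15a, the stress-induced phosphatase subunit GADD34, had 82.1, 257 and 146 RPKM with Retnlg, against 615, 479, 378 and 575 RPKM without. Fos overlapped because replicate 5, which lacked Retnlg, was as low as the libraries with it. Dusp2, a MAP kinase phosphatase outside the list, had 25.4, 18.3 and 28.0 RPKM with Retnlg, against 454, 319, 202 and 42.0 RPKM without, a mean difference of -2.94.

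**Figure D4:**
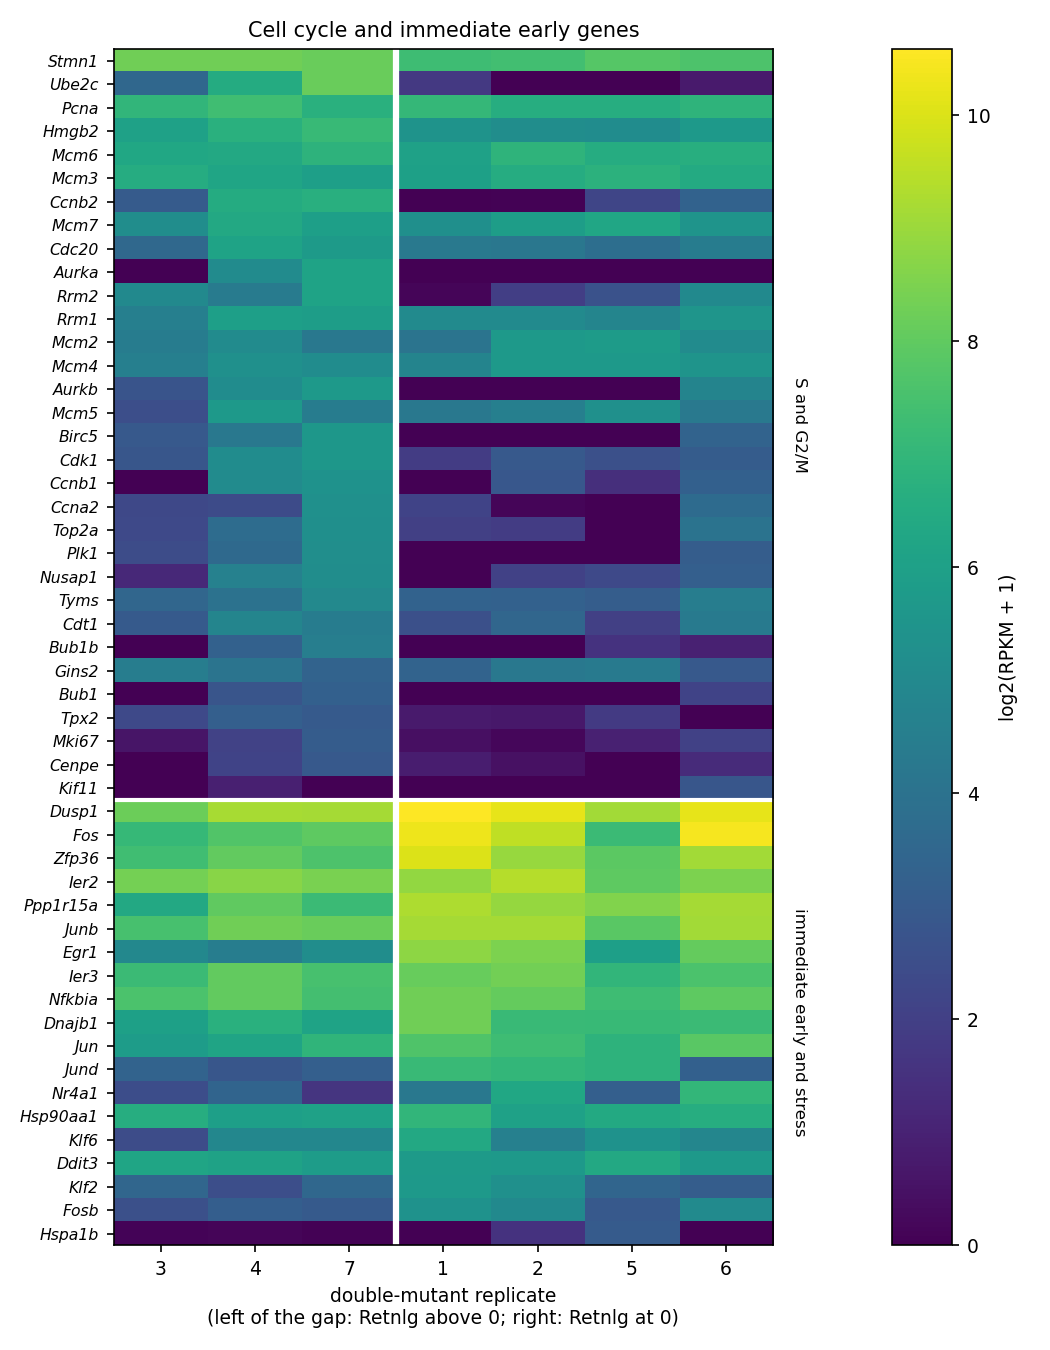
Levels of cell cycle genes (upper block) and immediate early and stress genes (lower block) that reach 5 RPKM in any double-mutant library, as log2(RPKM + 1) by colour, with the libraries with Retnlg left of the white gap. Mitotic genes such as Ube2c, Ccnb2 and Aurka are bright in replicates 4 and 7, and Fos is dimmest in replicates 3, 4, 7 and 5.

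The genes of both mutations were measured over the whole transcript. Ezh2 had 31.4, 15.1 and 15.8 RPKM with Retnlg, against 28.3, 13.2, 11.1 and 6.71 RPKM without, and its sets overlapped. Jak2 had 14.1, 4.44 and 1.57 RPKM with Retnlg, against 11.6, 23.5, 18.2 and 5.82 RPKM without, and its sets overlapped too. The labels do not say which exons the Ezh2 allele lacks, so the Ezh2 level checks no label. Of 11 PRC2 genes 2 were lower (18.2%, against 6.78%) and 0 higher, Ezh1 and Phf1 being the lower ones. Ezh1, the other methyltransferase of the complex, had 8.76, 9.76 and 5.19 RPKM with Retnlg, against 15.2, 23.2, 45.3 and 17.7 RPKM without. Of 14 JAK-STAT genes 2 were lower (14.3%, against 6.78%), Stat3 and Stat5b, 0 were higher, and the median was -0.67. Counts of 2 in lists of this size are not far from that share. Stat3 had 11.2, 18.8 and 30.8 RPKM with Retnlg, against 45.5, 63.8, 49.6 and 45.1 RPKM without. Stat5b, a transcription factor activated by JAK2, had 2.88, 4.59 and 5.46 RPKM with Retnlg, against 8.73, 17.1, 20.3 and 9.21 RPKM without.

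Interferon genes were higher in 4 of 28 described (14.3%, against 4.72%), 0 were lower, and the median was 0.26. Ifi27l2a had 186, 48.4 and 195 RPKM with Retnlg, against 34.9, 22.9, 41.7 and 8.95 RPKM without. Ifit1, an antiviral RNA-binding protein, had 69.0, 54.9 and 108 RPKM with Retnlg, against 27.5, 47.3, 47.9 and 8.68 RPKM without. Gbp3 and Ifitm3 were the others, and Ifitm3 differed by 0.61, or by -0.21 after quantile normalization. Without replicate 7 the median of the list was 0.08, and without replicate 6 it was 0.14. Of 10 MHC class II genes 0 were higher and 0 lower, against 4.72% and 6.78% of all genes.

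Respiratory chain genes differed by small and even amounts. Of 77 described, 25 were higher (32.5%, against 4.72%) and 0 lower, with a median of 0.30. Cox6a1, a cytochrome c oxidase subunit, had 1057, 951 and 1011 RPKM with Retnlg, against 773, 546, 595 and 683 RPKM without, the largest difference of the 25 at 0.64. Ribosomal protein genes were higher in 8 of 80 (10%, against 4.72%) and lower in 0, with a median of 0.26, and many have processed copies that may share reads. Without replicate 3 the ribosomal median was 0.10, and it was 0.01 with quantile normalization and 0.09 with TPM. The respiratory median was 0.09 with quantile normalization and 0.13 with TPM, under which the median of all genes was -0.02 and -0.30.

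Few markers of other lineages passed the filter. Erythroid, B cell, T and NK cell and dendritic genes had 0 members called among 4, 2, 4 and 1 described, and 0 of 12 eosinophil, basophil and mast cell genes passed the filter, 8 of them at 0 in all 7 libraries. With so few genes, 0 called is near the 4.72% and 6.78% of all genes and says little about these lineages. Replicate 5 held genes known from NK cells: Ncr1, the receptor NKp46, was at 48.5 RPKM there and at 0 in the other 6, and Klrd1, which codes for CD94, was at 17.5 RPKM against 0.356 RPKM or less. Its summed T and NK genes came to 333 RPKM, against 37.8 to 124 RPKM in the other 6. Of 13 megakaryocyte genes 1 was higher, Pf4, and 1 was lower (7.69% each, near the 4.72% and 6.78% of all genes). Pf4, platelet factor 4, had 151, 358 and 181 RPKM with Retnlg, against 72.7, 78.5, 73.5 and 90.5 RPKM without. Of 9 described multipotent progenitor and lymphoid priming genes, 1 was higher, Cd52 (11.1%, against 4.72%), 0 were lower, and the median was 0.06. The mean with Retnlg was above in 5 of the 9 and below in 4. Among them Cd48, whose product is absent from the surface of the most primitive HSCs, had 11.4, 9.17 and 65.1 RPKM with Retnlg. Without Retnlg Cd48 had 7.82, 0, 31.2 and 0 RPKM, so its sets overlapped, and it was at 0 in all 5 controls. For depth, the 7 libraries were estimated at 20.6, 19.6 and 18.5 megareads with Retnlg, against 17.3, 19.7, 23.0 and 29.2 megareads without. They held 10074, 10199 and 10348 genes at 1 RPKM or more with Retnlg, against 10435, 10702, 10840.0 and 10517 without. The part of the NK transcripts, depth and genes detected in the differences was not tested.

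The 19 libraries of the other 3 genotypes, which the split did not use, were tested for genes that follow Retnlg. limma was fitted to log2(RPKM + 1) with Retnlg as the measure and genotype and title style, whether the number stands before or after the group code, as covariates. Of 11636 genes, 0 had a positive and 0 a negative slope at an adjusted p under 0.05 (0% in each direction), and 532 had an unadjusted p under 0.05. The smallest adjusted p was 0.688, for Fcna, a ficolin of macrophages, with a slope of 0.97. None of the 184 higher and 467 lower genes of at least 1 log2 that were tested here passed. Retnlg was at 0 in all 5 controls and above 0 in 1 of 7 JAK2V617F libraries. With genotype as a covariate, the slope thus rests mainly on the 7 Ezh2 loss libraries and that 1. Ccl6, a chemokine of myeloid cells and the gene most like Retnlg over the 19 libraries (Pearson r = 0.85, a description), had a slope of 0.83 (SE 0.24), an unadjusted p of 0.00215 and an adjusted p of 0.999 in limma.

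In those libraries Retnlg and the granule genes came apart. Among the 7 Ezh2 loss libraries, replicate 2 had 449 RPKM of Retnlg and 16.0 RPKM of Ngp, and replicate 7 had 12.6 RPKM of Retnlg and 2976 RPKM of Ngp. The one JAK2V617F library with Retnlg, replicate 3, had 7.94 RPKM of Retnlg and 2527 RPKM of Ngp. No library of the series with Retnlg at 0 had more than 14.6 RPKM of Ngp.

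**Figure D5:**
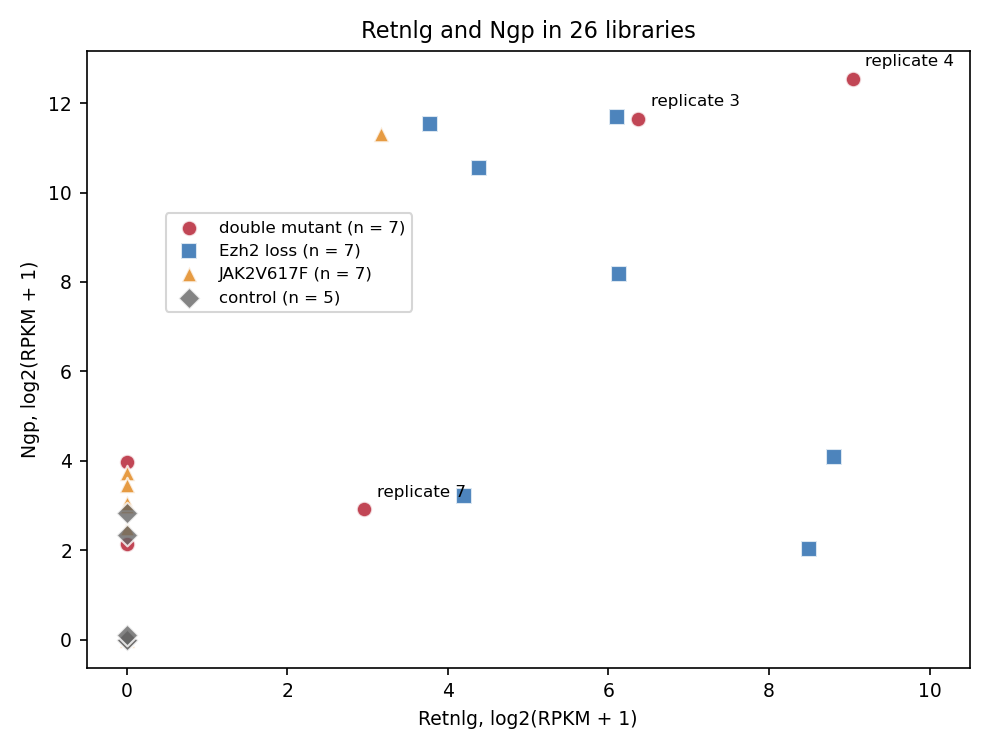
Retnlg against Ngp in all 26 libraries, both as log2(RPKM + 1), with 1 point per library and genotype by shape and colour. Double-mutant replicates 3 and 4 lie at the upper right, replicate 7 lies low on both axes, and Ezh2 loss libraries spread from 2.04 to 11.7 on the Ngp axis.

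With Ngp in place of Retnlg, limma gave 15 genes with a positive slope (0.129%) and 0 with a negative one at an adjusted p under 0.05, with 590 at an unadjusted p under 0.05. Chi3l3 had a slope of 0.85 (SE 0.08, limma adjusted p = 7.39e-06), Camp of 0.84 (SE 0.10, limma adjusted p = 0.000153), Ly6c2 of 0.57 (SE 0.10, limma adjusted p = 0.0147) and Cebpe of 0.35 (SE 0.07, limma adjusted p = 0.043). The others were Ltf, S100a8, Lcn2, Ifitm6, Chi3l1, Cd177, Lrg1, S100a9, 1100001G20Rik, Pilra and 1810033B17Rik. In these 19 libraries Chi3l3 reached 1 RPKM only where Ngp was at 289 RPKM or more. It passed the filter through those libraries alone, so its positive slope was built in and is no support. For the rest of the 15 this was not counted. Of the 185 genes higher by at least 1 log2 in the double mutants with Retnlg that were tested here, 7 passed, against 0.101% of all 10912 genes tested in both: Camp, Cd177, Cebpe, Chi3l1, Chi3l3, Ly6c2 and 1810033B17Rik. Of these, Cd177, Chi3l3 and 1810033B17Rik had passed the filter in the double mutants through the libraries with Retnlg alone and so had to be higher there, and without such genes 4 of 162 passed. The count of 15 changed with single libraries. Without JAK2V617F replicate 3, 4 genes passed (Camp, Lcn2, Ltf and S100a8), and 12 of the 15 still met the filter and were tested. Leaving out Ezh2 loss replicate 3, 5, 6 or 7 gave 9, 7, 8 and 7 genes, of which 8, 7, 8 and 7 were among the 15. In these runs 15, 15, 12 and 12 of the 15 were tested, so part of the drop came from the filter. Within title styles, 4 genes passed in the 11 number-last libraries and 0 in the 8 number-first ones. Of the 15, 4 were tested in the number-last libraries, where 3 passed (Camp, Ifitm6 and S100a8), and 3 in the number-first ones. All 15 slopes stayed above 0 wherever they were tested.

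What of the stem cell and immediate early genes differed in the double mutants did not pass in the other genotypes. Of 52 stem cell genes tested, 0 passed in either direction with Retnlg or with Ngp as the measure. Robo4 had a slope of -0.50 on Retnlg (SE 0.19, unadjusted p = 0.0147, limma adjusted p = 0.999). The slopes of Kit, Gata2 and Meis1 were 0.02, 0.02 and 0.06. Of 21 immediate early and stress genes 4 had a slope above 0 on Retnlg (median -0.16) and 12 had one on Ngp (median 0.01), and of 32 S and G2/M genes 24 had a slope above 0 on Retnlg (median 0.09), with 0 passing in any of these. A p that misses the threshold does not show that such genes are unrelated to Retnlg.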

How the data were processed

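Smart-Seq2 libraries of sorted mouse bone marrow HSCs were profiled by RNA sequencing, per the labels' protocols. The authors deposited RPKM values for 23416 genes in 1 table, whose 26 columns were all matched to libraries. The submitters' processing notes name mm10/GRCm38, Subread 1.5.0, SAMtools 0.1.19 and STAR 2.4.2a, without settings, strand handling or gene lengths. Depth was estimated from the whole-read steps of low RPKM values and GENCODE M21 exon lengths, and ran from 7.82 to 29.2 megareads over the 26 libraries.

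Groups were taken from the genotype label, and replicates were numbered in order of deposition and pair nothing. The 7 double mutants were split by Retnlg above or at 0 RPKM. Levels were compared as log2(RPKM + 1), which understates differences of low genes, over genes at 1 RPKM or more in at least 3 of the 7. Between any 2 of these libraries 0 genes had the same value above 0, and correlations were 0.923 to 0.932 within the set with Retnlg, 0.933 to 0.949 within the set without and 0.913 to 0.932 between them.

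In the other 19 libraries, genes at 1 RPKM or more in at least 5 were fitted with limma 3.58.1 in R 4.3.3 (lmFit, eBayes with trend and robust), two-sided, with Benjamini-Hochberg adjustment over all genes and a threshold of 0.05. P-values measure the spread between libraries, which may be technical. The fit was tested on simulated data.

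The members and the 25 gene lists were chosen with earlier results of these data known. Named are Retnlg, S100a8, Ngp, Camp, Ezh2 and Jak2, the 15 largest differences each way with non-overlapping sets and a mean of at least 5 RPKM in the higher set, up to 4 members per list, and the 6 most abundant stem cell and quiescence genes. Other genes named were chosen after their values were seen, among them Lcn2, Ltf, Mmp9, Mpo, Ctsg, Ccr2, F13a1, Irf8, Lyz2, Kit, Eng, Procr, Hlf, Slamf1, Tcf15, Fos, Ccnb2, Aurka, Cd48 and Ncr1. Of the listed symbols, 5 were not matched to the table. Alternatives covered pseudocounts, filters, scaling, covariates, the measure and leaving out each library. Leaving out single genes or members fixed by the split was chosen after seeing the data. Some genes that meet these rules are not reported here. Protein sequences were not used here.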

Additional observations from a re-analysis of the deposited data

Results flagged for a closer look

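Within the 7 double-mutant libraries, 2 of 107 named genes had 1 library set far from the other 6. The measure was the gap from that library to its nearest neighbour over the whole range, in log2(RPKM + 1) (0.568 for 7 libraries). Chance meets it in about 1 group in 20 where genes are not selected. Many of the 107 were named because their sets of 3 and 4 libraries do not overlap, so 2 of 107 cannot be read against that rate. Genes given above as high in 1 library, such as Mpo and Ctsg, were not among the 107. Elane was at 418 RPKM in replicate 7, with the next library at 3.82 RPKM. Rps18, a ribosomal protein gene with processed copies, was at 1909.9 RPKM in replicate 3, with the next at 1263 RPKM.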

How the results depend on the processing

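Of 1942 recomputed values of 107 named genes, 1807 moved by less than 1 SD, 133 moved by more and 2 changed sign, both with quantile normalization: Ifitm3 at -0.21 and Rps14 at -0.29. Genes higher and lower by at least 1 log2 numbered 124 and 212 with a pseudocount of 5, and 97 and 218 over genes at 1 RPKM or more in all 7 libraries, where 488 were lower by any amount. With TPM 285 were higher. These alternatives test fewer genes or shift every difference by construction.

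Leaving out each double-mutant library gave 647 to 982 higher and 936 to 1373 lower genes, 238 to 351 and 541 to 899 by at least 1 log2, and 12 to 16 stem cell genes lower, since fewer libraries then have to lie apart. The counts of higher and lower genes were 946 and 1308 without replicate 3, 982 and 1311 without replicate 4, 890.0 and 1373 without replicate 7, 842 and 1361 without replicate 6, and 1214 genes were lower without replicate 1. Stem cell genes called lower numbered 16 without replicate 6.

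Chosen after seeing the data, replicates 3 and 4 against the other 5 gave 573 higher and 918 lower genes, of which 175 and 295 were shared with the split, 6 stem cell genes lower, an interferon median of -0.004 and an S and G2/M median of 0.37. Replicate 6 alone as the library without Retnlg (title numbers 24 to 27) gave 2143 and 2696 genes, 701 and 977 by at least 1 log2, 21 stem cell genes lower, and S and G2/M, respiratory and ribosomal medians of 0.16, 0.125 and 0.10. The cause of these differences was not tested.

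In the other 19 libraries the slope on Retnlg passed for 0 genes in each alternative run, leave-one-out included (0 in each direction and 0 split genes), except with title style as the only covariate, where 4 were positive and 2 negative, 2 of them higher in the split, and with Ngp as the measure, where 15 were positive and 7 of them higher in the split. With a replicate block on the title number, which the labels do not say pairs libraries, 0 genes passed for Retnlg (592 at an unadjusted p under 0.05), and 9 positive and 1 negative passed for Ngp. For Ngp the positive count was 3 with a pseudocount of 0.1, 24 with title style only (2 negative), 2 in Ezh2 loss libraries alone, 0 in number-first and 4 in number-last libraries, 4 to 16 leaving out each library (0 to 1 negative), and 1 negative gene passed with no filter and with quantile normalization.

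Depth limits genes near 0 RPKM, where 3 reads of Retnlg correspond to 0.173 to 0.293 RPKM in the double mutants without it; such limits cover counting error only.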

Other observations

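Several genes outside the lists were lower with Retnlg at levels well above 0 in the other set. Enho, the gene of the secreted peptide adropin, was listed at 0 in each of replicates 3, 4 and 7, against 26.1, 11.9, 9.82 and 2.11 RPKM in replicates 1, 2, 5 and 6. Enho thus passed the filter through the libraries without Retnlg alone, all of them, and had to be called lower. Jdp2, a repressor of AP-1, was listed at 0 in the same 3 libraries, against 19.4, 9.39, 17.8 and 0.0182 RPKM, and replicate 6 was thus at the level of the set with Retnlg. Ripk2, the kinase of NOD receptor signalling, had 0.0255, 14.2 and 3.54 RPKM with Retnlg, against 16.7, 40.5, 40.4 and 37.5 RPKM without. Wrnip1, a DNA repair ATPase, had 5.29, 0.522 and 0 RPKM with Retnlg, against 16.3, 27.4, 34.8 and 16.3 RPKM without. All 4 reached 13.8 RPKM or more in at least 1 control library.

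The genes most like Retnlg over the 7 double mutants were Cd177, a neutrophil surface protein (Pearson r = 0.99), and then Hmgn2, Itpripl1, Vmp1 and Tmem11 (r from 0.97 to 0.98), which every library of both sets expressed. Over the other 19 libraries they were Ccl6, Lilrb4, S100a8, S100a9 and Upk1b (r from 0.79 to 0.85). The 5 genes of 1 group of libraries were not among the 5 of the other, and the libraries of each group share their amplification method, so both are given as a description.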
